A study of Mus musculus with 36 samples.

Results

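The late-fall module was a set of 90 array probes, of 46019 measured, whose signal was still close to its starting level 2 days into myoblast differentiation and was at least 2-fold lower at the end. The probes came from C2C12 cells, a mouse myoblast line that fuses into multinucleate myotubes when serum is reduced. A probe belonged to the module if its mean change from 0 h in the deposited normalized log2 table was above -0.4 at 12 h, above -0.6 at 48 h and at or below -1 at 144 h, and if it was lower at 144 h than at 48 h in all 3 same-numbered replicates. The arrays at 0, 12, 48 and 144 h therefore chose the members, and values at those times are descriptions without a test. Of the 90 probes, 75 carried a single gene symbol, covering 71 genes, and 15 carried none.

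C2C12 cells were sampled at 12 times with 3 replicates each, on 36 Illumina Mouse WG-6 v1.1 arrays that measure the total RNA of a whole culture. The 0 h cultures were undifferentiated myoblasts growing in DMEM with 20% FBS, and the cultures at 1, 1.5, 2, 3, 6, 9, 12, 24, 48, 96 and 144 h had been moved to DMEM with 2% horse serum. Replicates were grown from successive passages of the one line, in separate plates, and the labels name no transgene or added agent. A whole-culture measurement cannot tell fewer cells of a type from less RNA per cell, and that applies to every value below.

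Proliferating cells copy their DNA in S phase and divide it in mitosis. The genes for the replication machinery are transcribed mainly around S phase, many under the E2F family of transcription factors, and the replication-dependent histone genes in S phase with the coactivator NPAT. The genes for the mitotic machinery peak in G2 and mitosis, under the DREAM and MuvB complexes with B-Myb and FoxM1. Myoblasts leave the cell cycle before they fuse, while some cells of a differentiating C2C12 culture remain as mononuclear reserve cells.

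By role, 19 of the 90 probes were for DNA replication and repair genes, 18 for mitosis genes, 8 for H2A histone genes and 3 for cell cycle regulators, and 27 more named probes had other or mixed roles. These roles were assigned after the members were known. The replication and repair genes were Mcm2, Mcm6, Mcm7, Gins2 (with 2 probes), Cdc7, Pole, Rpa1, Rpa3, Rfc5, Fen1, Tyms, Chaf1a, Chaf1b, Uhrf1, Msh6, Rad54l, Ddx11 and Pif1. The mitosis genes were Cdk1, Top2a, Cdca8, Cdc20, Tpx2, Cdca5, Kif22, Cenpw, Spc24, Spc25, Kif4, Ncaph, Pbk, Kif18b, Troap, Tacc3, Mad2l1 and Pimreg. The regulators were E2f1, Foxm1 and Skp2.

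The 90 probes were 20.0% of the 451 that reached -1 at 144 h. Of those 451, 202 were already at or below -0.4 at 12 h and 313 at or below -0.6 at 48 h, and the demand for a fall in every replicate removed none. The boundaries cut through one continuous range. At 144 h, Slc35b3 at -1.0038 and Cdc7 at -1.01 were just inside, and Cenpt, at -0.9986, was just outside. At 48 h, Tmpo at -0.58 and Ralb at -0.58 were inside, and a second Triobp probe and a Sema4b probe, at -0.60 and -0.61, were outside. At 12 h, Mcm6 at -0.40 and Tubb5 at -0.40 were inside by less than 0.01, and Kif2c and Stmn1, both also at -0.40, were outside by less than 0.01.

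The arrays lay 6 to a chip on 6 chips. In every replicate 48, 96 and 144 h were measured on a single chip, and so were 9 and 24 h, but 96 and 24 h were together on a chip in replicate 1 only. Median raw intensity ran between 179.2 and 307.0 over the arrays, and between 184.7 and 234.0 at 96 h. The myogenic identity of the cultures was visible: the probes for Myod1, Myog, Des and Ckm were above the array median on all 3 arrays at 0, 24 and 96 h, and 15 of 44 tested sarcomere and contraction probes were higher at 96 h than at 24 h, with 0 lower (limma, adjusted p below 0.05), where 4.26% of all tested probes were higher.

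The median of the module was lowest at the last 2 times. Levels and changes from here on are log2 values of the raw table after background correction and quantile normalization. The deposited table gives smaller changes for the dimmest members: at 144 h the median of the members was -1.65 on this scale and -1.23 in the deposited table, with Pole at -1.75 and -1.01 and Rad54l at -1.84 and -1.05. Over the 90 probes the median change from 0 h, as the mean over the 3 replicates, was -0.05 after 1 h and -0.21 after 9 h. It then reached -0.38 by 24 h, returned to -0.06 by 48 h, and was down to -1.02 on the 96 h arrays and -1.65 on the 144 h arrays. The SD over the replicates was 0.02 at 24 h and 0.06 at 48 h, but 0.42 at 96 h and 0.46 at 144 h, where replicate 1 was the lowest. The 361 probes that also reached -1 at 144 h but failed another part of the rule had a steadier course, with -0.77 by 24 h, -1.20 by 48 h, then -1.49 (96 h) and finally -1.63 (144 h). All 361 had failed the rule's limit at 12 h or at 48 h, so the sorting by the rule makes this difference in course. The median over all 46019 probes stayed within 0.02 of 0 at every time.

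**Figure D1:**
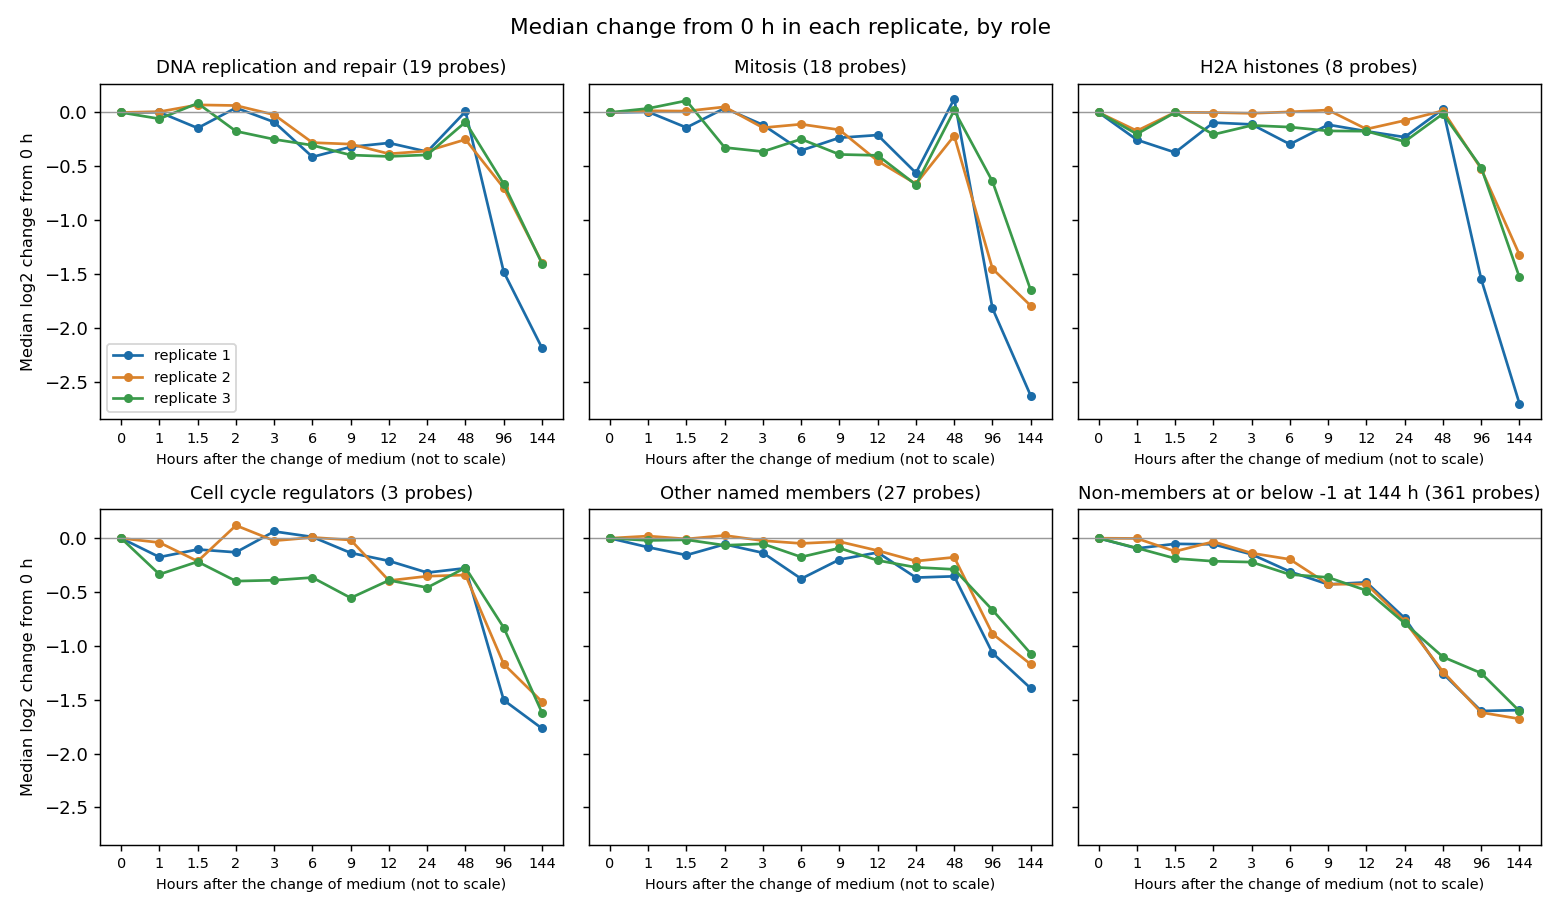
Median log2 change from 0 h (vertical axis) at the 12 times in hours (horizontal axis, not to scale), with 1 line for each replicate, for 5 role groups of the module and for the 361 other probes at or below -1 at 144 h. The mitosis lines lie between -0.22 and 0.13 at 48 h and between -0.67 and -0.56 at 24 h, and replicate 1 is the lowest line in each module panel at 96 h and 144 h.

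The mitosis members had lower medians at 24 h than at 48 h. Their 18 probes had a median change from 0 h of -0.56, -0.66 and -0.67 at 24 h in replicates 1, 2 and 3, then 0.13, -0.22 and 0.02 at 48 h. The 96 h medians were -1.82, -1.45 and -0.64, and the 144 h medians -2.63, -1.80 and -1.65. The replication and repair probes had medians of -0.36, -0.36 and -0.39 at 24 h and stood at 0.01, -0.25 and -0.09 at 48 h. The medians of the other named members averaged -0.28 at 24 h and -0.27 at 48 h, and from 24 h to 48 h 8 of the 27 were higher and 14 lower in all 3 replicates. Over all 46019 probes, 17.4% were higher and 17.3% lower in all 3. The rule's limit at 48 h favours members that are high at that time.

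The comparison of 96 h with 24 h asked whether the members were lower late in the course on arrays that the rule did not use. It also takes in any change from 24 h to 48 h, so it cannot place a fall after 48 h. In it 53 of the 90 members were lower at 96 h and 0 were higher (limma, Benjamini-Hochberg adjusted p below 0.05 over 29812 tested probes, 3 arrays at each time). Among all tested probes 4.53% were lower and 4.26% higher. The share of members, 58.9%, was next to 58.2% (210) of the 361 other probes that reached -1 at 144 h, whose median was -0.71. The median over the 90 members was -0.63, with a range of -1.30 to -0.08, and the median over all tested probes was -0.01. All 90 members passed the filter on dim probes, and all 90 were above the array median on every 144 h array. The 96 h arrays share chips with the 48 h and 144 h arrays that chose the members, so they are separate arrays but not separate chips.

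The size of that fall differed between replicates. The median over the members was -1.11 in replicate 1, -0.55 in replicate 2 and -0.28 in replicate 3, and 67 members were lower in all 3 same-numbered pairs, as were 20.2% of all 46019 probes. Leaving out the 96 h array of replicate 1 lowered the count of 53 to 27, and leaving out the 24 h array of replicate 2 lowered it to 28. Without all arrays of replicate 1, 2 or 3 the counts were 27, 16 and 34. In the fit blocked by replicate, 69 members were lower and 0 higher. The 16 added were Fen1, Rfc5, Chaf1b, the second Gins2 probe, H2ac8, H2ac10, Foxm1, Cdc20, Kif22, Troap, Diaph3, Arhgef39, Lasp1, Errfi1, Glipr2 and a probe without a symbol, so what is said below not to pass did not pass without the block. Beside this, the raw median intensities of the 96 h arrays were 208.1, 184.7 and 234.0 in replicates 1, 2 and 3, and the median change from 48 h to 96 h of the sarcomere and contraction probes was 0.33, 0.26 and 0.16. The part of either in the replicate difference was not tested.

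**Figure D2:**
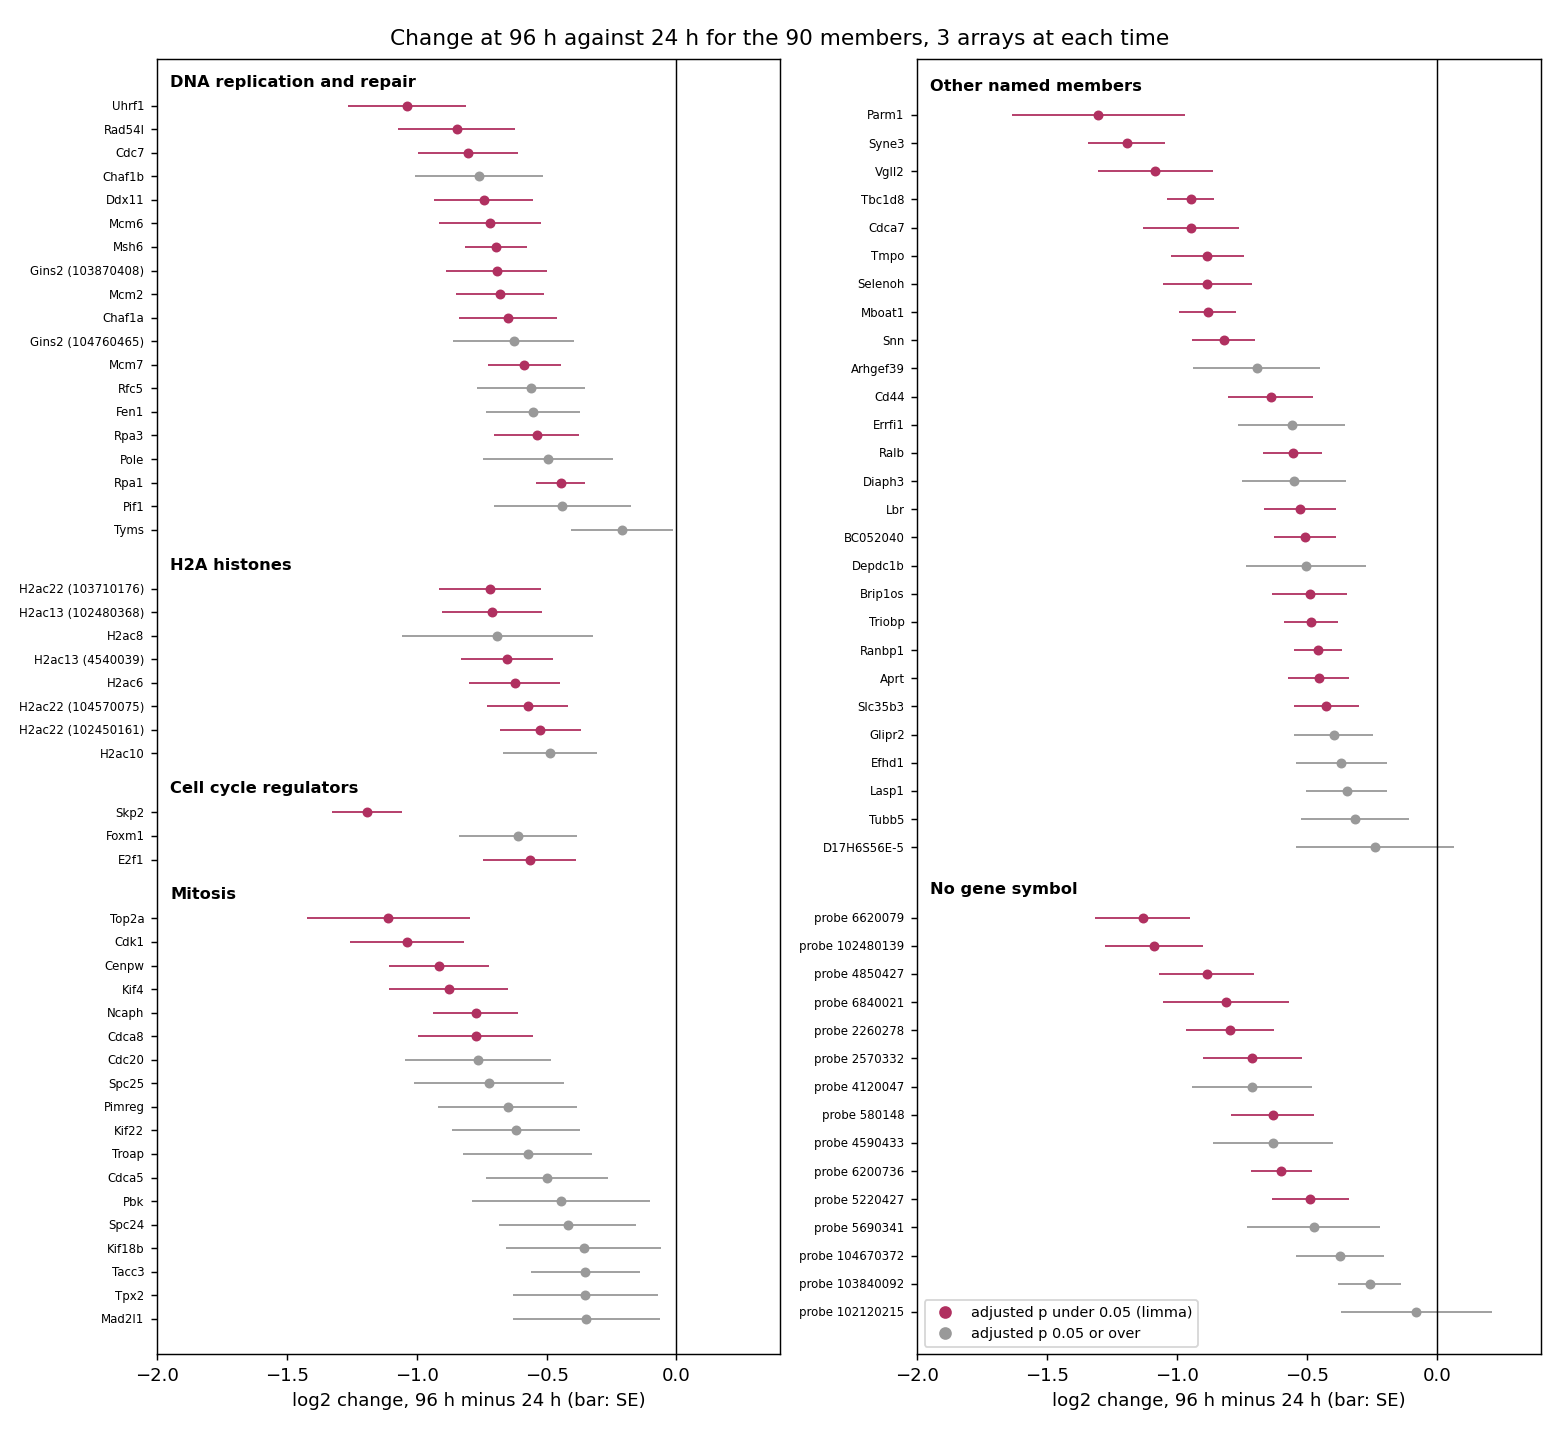
Log2 change at 96 h minus 24 h (horizontal axis) for each of the 90 members, with its standard error as a bar and 3 arrays at each time, grouped by role and sorted within each group. All 90 points lie below 0, the 53 coloured points passed the adjusted threshold, and 12 of the 18 mitosis points did not.

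Of the 19 DNA replication and repair members, 12 passed as lower at 96 h than at 24 h and 0 as higher (limma, adjusted p below 0.05). The changes of all 19 ranged from -1.04 to -0.21. Uhrf1, which recognises hemimethylated DNA and brings the maintenance methyltransferase to replicated DNA, had levels of 11.09, 12.52 and 12.34 at 96 h in replicates 1, 2 and 3, against 13.27, 12.98 and 12.82 at 24 h. Every 96 h array lay below every 24 h array, with replicate 1 far the lowest. The change was -1.04 ± 0.23 (SE, limma adjusted p = 0.0048), but -0.59 with the lowest array dropped and -0.47 with all of replicate 1 dropped.

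Mcm2, Mcm6 and Mcm7 are subunits of the hexameric helicase that unwinds DNA at the fork. Mcm6 had 9.99, 11.13 and 10.75 at 96 h, against 11.19, 11.35 and 11.47 at 24 h, a change of -0.72 ± 0.20 (SE, limma adjusted p = 0.0232). Mcm2 had 10.03, 10.95 and 10.66 at 96 h, against 11.20, 11.31 and 11.18 at 24 h, a change of -0.68 ± 0.17 (SE, limma adjusted p = 0.013). Mcm7 had 11.17, 11.79 and 11.57 at 96 h, against 12.07, 12.27 and 11.95 at 24 h, a change of -0.59 ± 0.14 (SE, limma adjusted p = 0.0094). The groups did not overlap for any of these subunits, and replicate 1 was again the lowest at 96 h. All of these calls were lost without the 96 h array of replicate 1, and likewise without the 24 h array of replicate 2, with adjusted p reaching 0.229 for Mcm6, 0.164 for Mcm2 and 0.128 for Mcm7 at the highest of 21 alternative settings. With that 96 h array left out, Mcm6 was at -0.40 and Mcm2 at -0.42. Other Mcm6 probes, outside the module, were at -0.46 and -0.44 and did not pass (limma adjusted p = 0.419 and 0.144). Another Mcm7 probe, at -0.65, did not pass either (limma adjusted p = 0.121).

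Cdc7 is the kinase that activates the helicase at replication origins. It had 8.70, 9.35 and 9.49 at 96 h, against 10.11, 9.98 and 9.87 at 24 h, and fell by 0.80 ± 0.19 on the log2 scale (SE, limma adjusted p = 0.0091). Rad54l, a motor protein of homologous recombination, had 8.19, 9.02 and 9.19 at 96 h, against 9.61, 9.79 and 9.55 at 24 h, and fell by 0.85 ± 0.22 (SE, limma adjusted p = 0.019). Ddx11, a helicase that acts in sister chromatid cohesion, had 8.98, 9.33 and 9.64 at 96 h, against 9.92, 10.29 and 9.96 at 24 h, and fell by 0.74 ± 0.19 (SE, limma adjusted p = 0.015). All 3 genes had separate groups at the 2 times. Their calls were lost without the 96 h array of replicate 1, and those of Rad54l and Ddx11 also without the 24 h array of replicate 2. In the deposited table the changes were -0.50 for Cdc7, -0.47 for Rad54l and -0.48 for Ddx11, and Rad54l was at -0.54 once its lowest late array was dropped.

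A further 5 probes of this role passed. They included those for Msh6 of mismatch repair at -0.70 and Chaf1a of the histone chaperone CAF-1 at -0.65. Rpa1 and Rpa3 of the single-strand binding complex were at -0.45 and -0.54. The last was 1 of 2 member probes for Gins2 of the replicative helicase, at -0.69. The 7 that did not pass were Chaf1b, Fen1, Rfc5, Pole, Pif1, Tyms and the second Gins2 probe. Tyms, the thymidylate synthase, showed the least change, with 10.31, 11.08 and 11.24 at 96 h, against 11.14, 11.14 and 10.98 at 24 h. Its groups overlapped, and the change of -0.21 ± 0.20 (SE) had a limma adjusted p of 0.653. It was at 12.16, 11.88 and 11.87 at 48 h, above every one of its 24 h and 96 h arrays.

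Most H2A histone probes lay near the top of the scanner's range, so their values are bounded there. Symbols for the 8 probes were H2ac6, H2ac8, H2ac10, H2ac13 with 2 probes and H2ac22 with 3 probes. These genes have near-identical copies, so a probe may report more than the gene it is named for. All of them but H2ac8, and also 1 probe without a symbol, reached at least 80% of the array's highest value on 2 or 3 of the 3 arrays at 0 h and on all 3 at 48 h. A rise above that range could not be read from these probes, and the size of a fall from it is a lower bound.

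At 96 h, 6 of the 8 H2A probes were lower than at 24 h and 0 were higher, with changes between -0.72 and -0.49. Of the 3 H2ac22 members, the probe with the largest change had 14.28, 15.32 and 15.39 at 96 h, against 15.61, 15.75 and 15.79 at 24 h, or -0.72 ± 0.20 (SE, limma adjusted p = 0.0221). The other H2ac22 members were at -0.57 and -0.52, with limma adjusted p of 0.0225 and 0.0383. H2ac6 had 14.54, 15.58 and 15.62 at 96 h, against 15.87, 16.01 and 15.72 at 24 h, or -0.62 ± 0.18 (SE, limma adjusted p = 0.0269). One H2ac13 probe was at -0.65 ± 0.18 (SE, limma adjusted p = 0.0211). H2ac10 had 14.72, 15.78 and 16.01 at 96 h, against 15.85, 16.05 and 16.07 at 24 h, so the groups overlapped, and its -0.49 ± 0.18 (SE) had a limma adjusted p of 0.108, or 0.0315 when blocked by replicate. None of the H2A calls named here held without the 24 h array of replicate 2. With replicate 1 dropped at 96 h alone, the changes named here lay between -0.36 and -0.09. With the 7 members that were near the top of the range on all 3 arrays at 0 h left out, 47 of 83 members were lower at 96 h and 0 higher.

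Among the regulators Skp2 stood out by its agreement between replicates. Skp2 is the F-box subunit that directs the p27 inhibitor and other proteins to degradation. It had 10.77, 11.04 and 11.05 at 96 h, against 12.15, 12.17 and 12.12 at 24 h. The 2 groups were more than 1 log2 unit apart and each spanned under 0.3, with a change of -1.19 ± 0.13 (SE, limma adjusted p = 2.35e-06). At 48 h it was at 11.90, 11.87 and 11.94, below every 24 h array.

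E2f1, a transcription factor of the replication genes, had 10.34, 10.96 and 10.86 at 96 h, against 11.40, 11.34 and 11.11 at 24 h. The groups were separate, and the change of -0.57 ± 0.18 (SE) was just past the threshold, with a limma adjusted p of 0.049982 and a range of 0.00513 to 0.448 over 21 alternative settings, and the change became -0.38 once the lowest late array was dropped. Foxm1, a transcription factor of the mitosis genes, had 8.42, 9.24 and 9.67 at 96 h, against 9.78, 9.92 and 9.46 at 24 h. Its replicate 3 was not lower, and the change of -0.61 ± 0.23 (SE) did not pass (limma adjusted p = 0.108).

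Mitosis members were divided between replicates at 96 h. Only 6 of the 18 passed, all lower, although the median change of -0.63 was close to that of the replication members at -0.65. In replicate 1 all 18 were lower at 96 h than at 24 h, with a median of -1.28, and in replicate 2 all 18 were lower with a median of -0.70. In replicate 3 only 6 were lower, and the median was 0.15. The 6 that passed the test were Top2a, Cdk1, Cenpw, Kif4, Ncaph and Cdca8. Of these, Top2a and Kif4 were not lower in replicate 3.

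Cdk1, the kinase that drives entry into mitosis, had 9.91, 10.87 and 11.39 at 96 h, against 11.67, 11.88 and 11.73 at 24 h. All 3 late arrays were below all 3 earlier ones, spread over more than 1 log2 unit, and the change was -1.04 ± 0.22 (SE, limma adjusted p = 0.0036). It was -0.63 with the lowest array left out, and the call was lost without replicate 2 (limma adjusted p = 0.117) and in a fit of these 2 times alone (limma adjusted p = 0.0712). Top2a, the topoisomerase that untangles chromosomes, had 9.30, 9.68 and 10.96 at 96 h, against 11.46, 11.0046 and 10.81 at 24 h. Replicate 3 overlapped the earlier arrays, and the change of -1.11 ± 0.31 (SE, limma adjusted p = 0.0279) was lost without the 96 h or the 24 h array of replicate 1 or of replicate 2. It was -0.59 without replicate 1 and -1.74 without replicate 3.

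Cenpw, a centromere protein, had 9.43, 9.75 and 10.30 at 96 h, against 10.63, 10.85 and 10.75 at 24 h, a change of -0.92 ± 0.19 (SE, limma adjusted p = 0.0034). Ncaph of condensin had 9.12, 9.48 and 9.84 at 96 h, against 10.27, 10.23 and 10.26 at 24 h, a change of -0.77 ± 0.16 (SE, limma adjusted p = 0.0034). Cdca8, or borealin, of the chromosomal passenger complex had 10.63, 10.99 and 11.76 at 96 h, against 11.91, 11.86 and 11.93 at 24 h, a change of -0.77 ± 0.22 (SE, limma adjusted p = 0.03). In all 3 genes the replicates were ordered alike at 96 h, with replicate 1 lowest and replicate 3 highest, and each pair of groups was separate. The Cdca8 call was lost without any one of 5 single arrays, among them the 96 h arrays of replicates 1 and 2.

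Cdc20, the activator of the anaphase-promoting complex, had 10.15, 10.95 and 11.58 at 96 h, against 11.53, 11.83 and 11.63 at 24 h. The groups overlapped through replicate 3, and the change of -0.77 ± 0.28 (SE) did not pass (limma adjusted p = 0.102). It did pass in the fit blocked by replicate (limma adjusted p = 0.0117), and its change became -0.39 once the lowest late array was dropped. By 144 h it was at 9.11, 10.68 and 10.15. The spindle and kinetochore members Tpx2, Spc24, Kif18b, Tacc3 and Mad2l1 were between -0.42 and -0.35 at 96 h against 24 h and did not pass. Spc25, Kif22, Cdca5, Pimreg, Troap and Pbk, at -0.72 to -0.44, did not pass either, and the chromokinesin Kif4, at -0.88 ± 0.23 (SE), did (limma adjusted p = 0.0173). Kif4 had 8.54, 9.04 and 9.91 at 96 h, against 10.19, 10.10 and 9.83 at 24 h, so its groups overlapped through replicate 3. Another Kif4 probe, at -0.44, did not pass (limma adjusted p = 0.223).

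**Figure D3:**
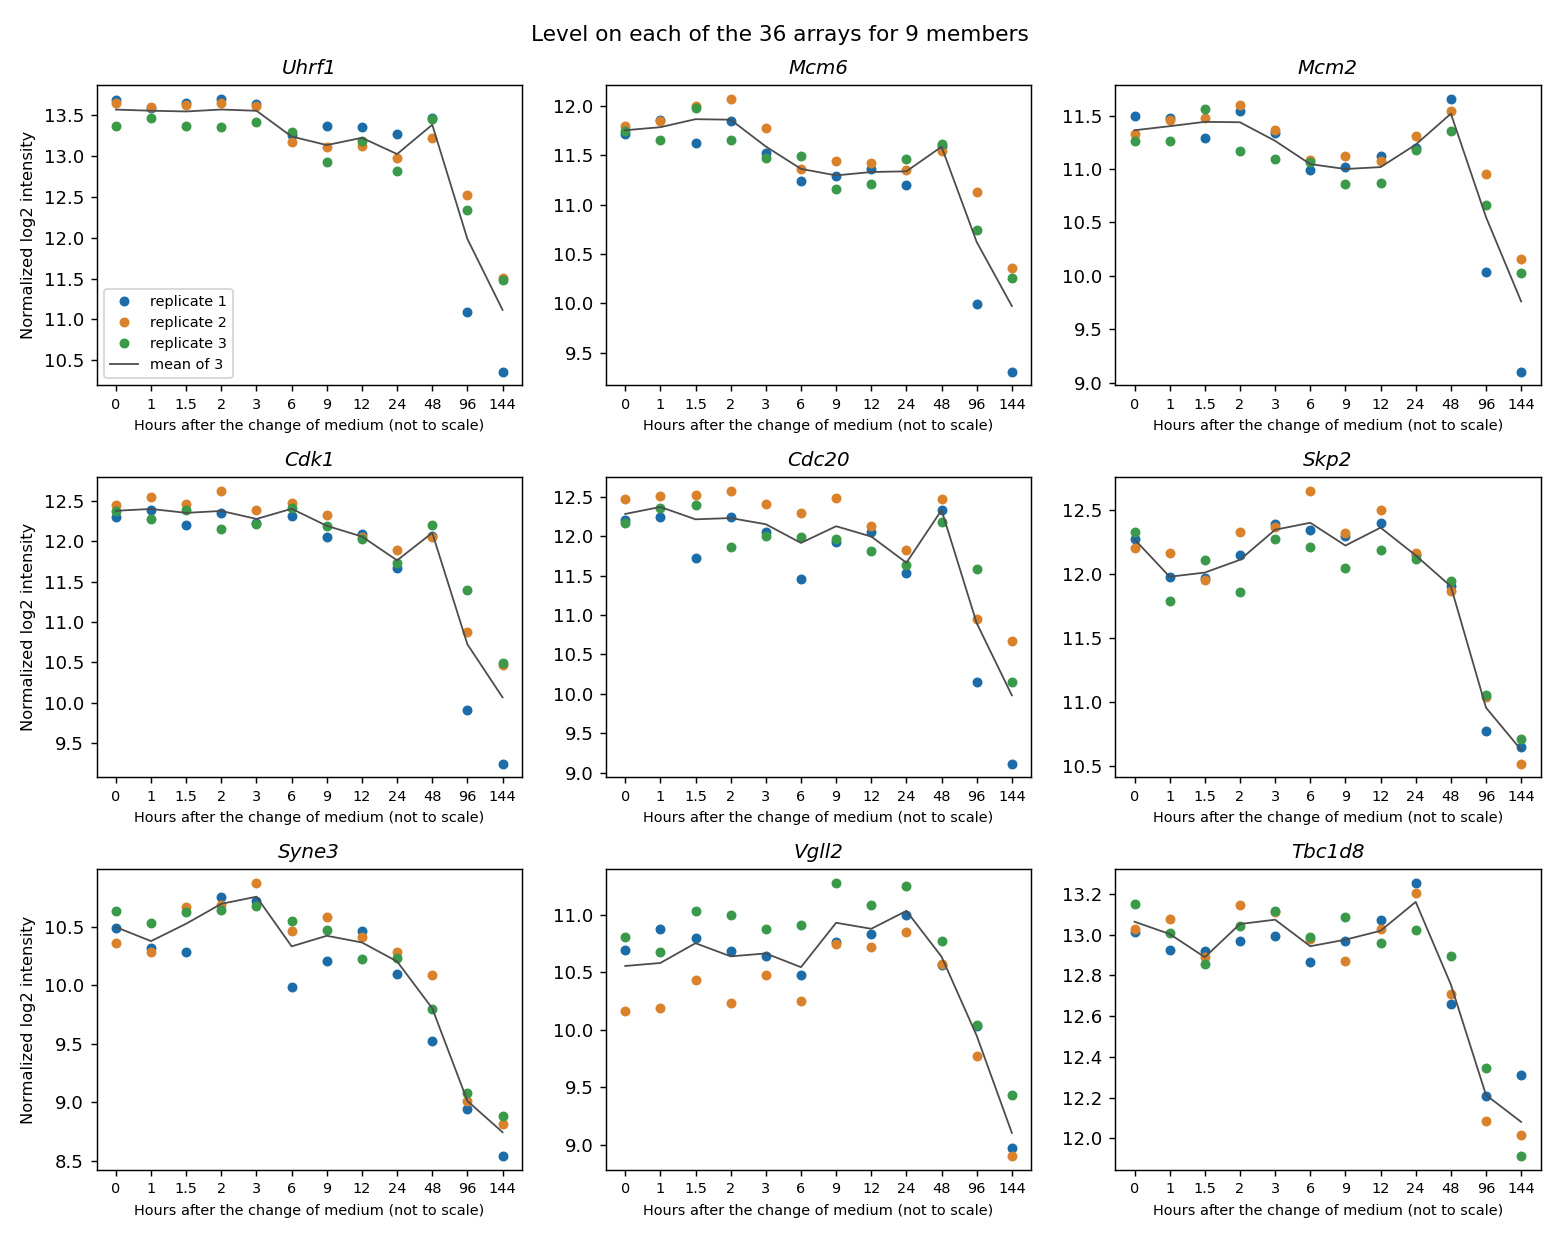
Normalized log2 intensity (vertical axis) on each of the 36 arrays for 9 members across the 12 times in hours (horizontal axis, not to scale), with points coloured by replicate and a line through the mean of 3. At 96 h the points of Uhrf1, Cdk1 and Cdc20 are spread over more than 1 log2 unit with replicate 1 lowest, and those of Skp2, Syne3, Vgll2 and Tbc1d8 lie within 0.3.

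Of the 27 other named members, 18 were lower at 96 h than at 24 h and 0 were higher, with a median change of -0.55, and the medians of the replicates were closer together, at -0.72, -0.61 and -0.43. Stability was read probe by probe only for those kept by the naming rule given under the processing, chiefly the largest falls. Of the 28 such probes that passed, 7 passed in all 21 alternative settings. In this group were 6 of those 7: Syne3, Vgll2, Tbc1d8, Tmpo, Mboat1 and Snn. The other was Skp2. All 7 had a lower mean at 48 h than at 24 h, so part of each change came before 48 h. The means at 24 h and 48 h were 10.21 and 9.80 for Syne3, 11.03 and 10.63 for Vgll2, and 13.16 and 12.755 for Tbc1d8. They were 11.58 and 11.43 for Tmpo, 11.89 and 11.50 for Mboat1, 12.18 and 11.79 for Snn, and 12.15 and 11.90 for Skp2. Of the 28, 13 did not pass when the 96 h array of replicate 1 was left out, and 13 when the 24 h array of replicate 2 was. Uhrf1 passed in every setting that left out a replicate or a single array, and in 20 of the 21 in all.

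Syne3, or nesprin-3, ties the outer nuclear membrane to the cytoskeleton. It had 8.94, 9.01 and 9.08 at 96 h, against 10.10, 10.28 and 10.24 at 24 h, a change of -1.19 ± 0.15 (SE, limma adjusted p = 7.59e-06), which was -0.76 in the deposited table. Tmpo encodes the lamina-associated polypeptide 2 proteins of the inner nuclear membrane and nucleoplasm. It had 10.60, 10.62 and 10.89 at 96 h, against 11.38, 11.64 and 11.74 at 24 h, a change of -0.88 ± 0.14 (SE, limma adjusted p = 0.000209). Lbr, the lamin B receptor of the same membrane, was also lower, at -0.53 ± 0.14 (SE, limma adjusted p = 0.0175).

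Vgll2, a cofactor of TEAD transcription factors found in skeletal muscle, had 10.03, 9.77 and 10.04 at 96 h, against 10.9975, 10.85 and 11.25 at 24 h, a change of -1.08 ± 0.22 (SE, limma adjusted p = 0.0025). Its groups lay well apart, and its last level, 8.97, 8.90 and 9.43 at 144 h, was lower again. Tbc1d8, a protein with a Rab GTPase-activating domain, had 12.21, 12.08 and 12.35 at 96 h, against 13.25, 13.20 and 13.02 at 24 h, a change of -0.95 ± 0.09 (SE, limma adjusted p = 2.17e-07). A second Tbc1d8 probe went the other way, at 0.83 for 96 h minus 24 h (limma adjusted p = 0.248), so the probes of that gene disagree.

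Parm1, a mucin-like membrane protein, had the largest change of the 90 members at 96 h against 24 h, and in 17 of the 21 alternative settings. It ranked 9 with replicate 3 dropped. Dropping only a 96 h array put it at rank 24 (replicate 3) or 3 (replicate 2), and dropping replicate 1 at 24 h alone, at rank 6. It was at 12.15, 11.33 and 10.73 at 96 h, against 13.24, 12.58 and 12.30 at 24 h, a change of -1.30 ± 0.33 (SE, limma adjusted p = 0.0149). Replicate 1 was the highest at both times, and its 96 h level was just under the lowest 24 h level. The call was lost without the 96 h array of replicate 2 or 3 or the 24 h array of replicate 1. A second Parm1 probe was at -1.24 (limma adjusted p = 0.0384).

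Mboat1, a lysophospholipid acyltransferase, had 11.09, 10.90 and 11.02 at 96 h, against 11.80, 11.93 and 11.93 at 24 h, a change of -0.88 ± 0.11 (SE, limma adjusted p = 8.35e-06). Snn, the small membrane protein stannin, had 11.36, 11.26 and 11.46 at 96 h, against 12.08, 12.18 and 12.28 at 24 h, a change of -0.82 ± 0.12 (SE, limma adjusted p = 7.65e-05). Both had tight, separate groups.

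Cdca7 and Selenoh were less even. Cdca7, a zinc finger protein that works with the chromatin remodeller HELLS, had 10.02, 11.14 and 10.68 at 96 h, against 11.49, 11.78 and 11.41 at 24 h, a change of -0.95 ± 0.18 (SE, limma adjusted p = 0.0015). Selenoh, a nuclear selenoprotein, had 11.59, 11.84 and 12.20 at 96 h, against 12.58, 12.96 and 12.74 at 24 h, a change of -0.88 ± 0.17 (SE, limma adjusted p = 0.0017). The remaining members of the group that passed were Cd44, Ralb, BC052040, Brip1os, Triobp, Ranbp1, Aprt and Slc35b3, at -0.64 to -0.43. The other tested Cd44 probes were between -0.25 and 0.27 and none of them passed (limma). Those that did not pass were Arhgef39, Errfi1, Diaph3, Depdc1b, Glipr2, Efhd1, Lasp1, Tubb5 and D17H6S56E-5, at -0.69 to -0.24.

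Of the 15 members without a gene symbol, 9 were lower at 96 h than at 24 h and 0 were higher (limma), with a median of -0.63 and a range of -1.13 to -0.08, and 11 were lower in all 3 pairs.

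Errfi1, an inhibitor of EGF receptor signalling, was singled out after its values were seen, because it also had an early peak. It started at 13.88, 13.89 and 13.80 (0 h), peaked at 15.11, 15.12 and 15.45 (1 h), and had come down to 14.48, 13.75 and 13.95 by 1.5 h. The 24 h levels were 13.35, 13.32 and 13.78. The 1 h arrays stood more than 1 log2 unit above the 0 h arrays.

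Before the late fall, between 9 h and 24 h, no member passed the test without a block. At 24 h against 9 h, where same-numbered arrays share a chip, 0 of the 90 members passed in either direction (limma). Among all tested probes 0.362% were lower and 1.55% higher, so a count of 0 does not set the members apart from them. The rule's limits at 12 h and 48 h also work against probes that had fallen by then. Of the 361 other low probes, which failed one or both of those limits, 47 were lower and 0 higher (limma). Their median was -0.37, and the sorting by the rule enters this difference from the members. At an unadjusted p below 0.05, 6 members were lower and 0 higher, beside 3.64% and 5.15% of all tested probes. With the replicate number as a block 2 members were lower, Triobp and a probe without a symbol, and with the chip as a block only Triobp was. The median over the members was -0.17, and 51 of 90 were lower in all 3 pairs, as were 7398 of all 46019 probes. Mitosis members were lower at 24 h in all 3 pairs for 15 of 18, with changes of -0.60 to -0.24. Replication and repair members were lower in all 3 pairs for 6 of 19, with a median of -0.02.

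Set against 9 h, 75 of the 90 members were lower at 96 h and 0 were higher (limma, adjusted p below 0.05), where 8.56% of all tested probes were lower and 7.37% higher. The median was -0.80, and 82 members were lower in all 3 pairs, as were 21.5% of all probes. Of the 361 other low probes, 316 passed (87.5%), with a median of -1.07. Mitosis members passed in 15 of 18 cases here, with a median of -1.01, and replication and repair members in 13 of 19, with a median of -0.65. This comparison shares its 96 h arrays with the one above. The 15 that did not pass included Tyms, Mcm2, E2f1, Fen1, Chaf1b, Pole, Pbk, Kif18b and Mad2l1.

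The late steps were read between same-numbered arrays, without a test because the rule used 48 h and 144 h. From 24 h to 48 h all 18 mitosis members were higher in all 3 replicates, with medians of 0.74, 0.57 and 0.77. Replication and repair members were higher in all 3 for 17 of 19. Of all 46019 probes, 7998 were higher in all 3. The 24 h and 48 h arrays share a chip in replicate 1 only, and the 48 h floor in the rule favours members that are high at that time.

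From 48 h to 96 h, on shared chips, 86 of the 90 members were lower in all 3 replicates, with medians of -1.53, -0.79 and -0.58, and so were 17.5% of all probes. Mitosis members had medians of -2.13, -1.18 and -0.66, and the other named members -0.53, -0.60 and -0.46. From 96 h to 144 h, 79 of the 90 were lower in all 3, with medians of -0.66, -0.43 and -0.69, and so were 16% of all probes. Mitosis members in replicate 3, which had moved least by 96 h, had the largest median in this last step, at -1.08, against -0.74 in replicate 1 and -0.34 in replicate 2. The H2A probes continued downwards at -1.19, -0.80 and -0.89.

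**Figure D4:**
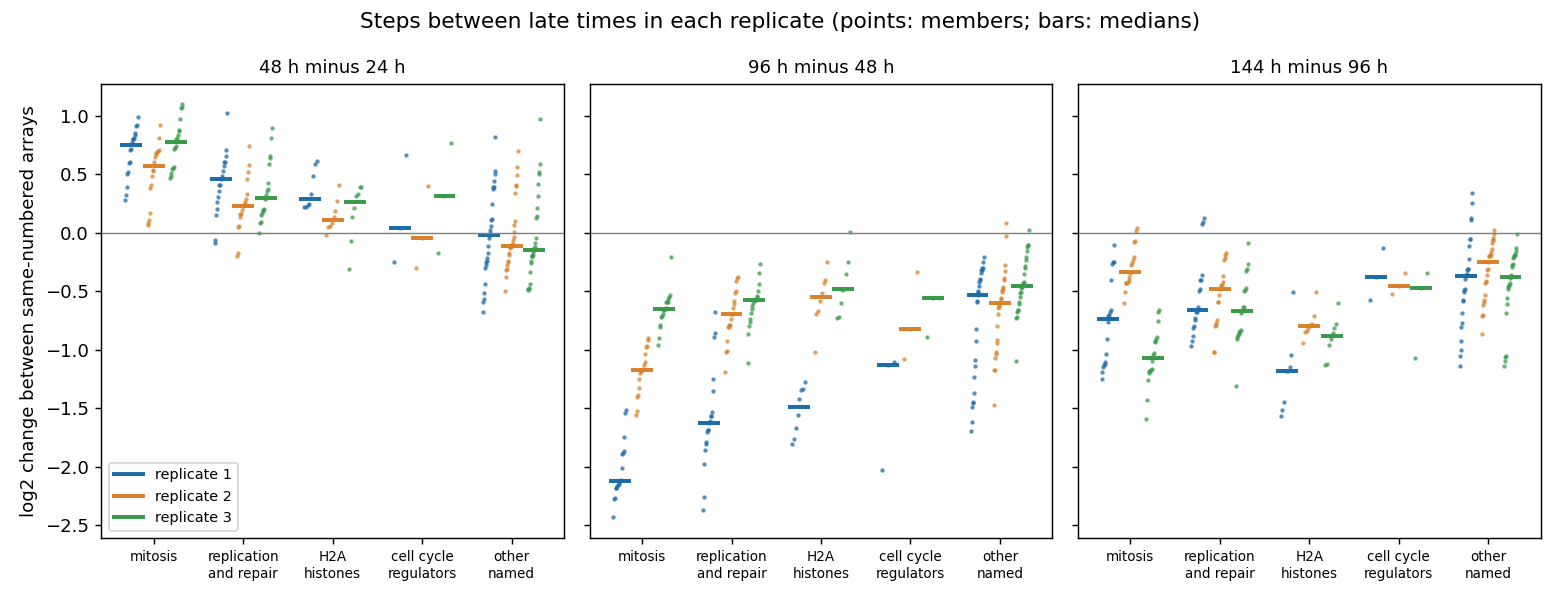
Log2 change between same-numbered arrays (vertical axis) for 48 h minus 24 h, 96 h minus 48 h and 144 h minus 96 h, with a point for each member, a bar for the median, colours for replicates and columns for roles. Mitosis members are above 0 in every replicate in the first step, and in the second their medians run from -2.13 in replicate 1 to -0.66 in replicate 3, while the other named members stay between -0.60 and -0.46.

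The rule was also applied to 2 replicates at a time and read in the third. Chosen without replicate 1, 75 probes met it, and 70 of these were lower at 144 h than at 48 h in replicate 1, with a median of -0.91 in the deposited table. Chosen without replicate 2, 98 probes met it and all 98 were lower in replicate 2, with a median of -1.02. Chosen without replicate 3, 116 met it and all 116 were lower in replicate 3, with a median of -0.92. Between 49.1% and 51.6% of all probes were lower in the left-out replicate. Of the 3 sets, 51, 77 and 81 probes were members of the module, so its exact membership depends on the replicates.

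A list of 29 cell cycle and DNA replication genes, drawn up with earlier results of these data known, had 53 tested probes for 25 of its genes, and 8 of the probes were members. At 96 h against 24 h 17 of the 53 were lower and 0 higher (limma), where 4.53% of all tested probes were lower. The 17 include the member probes of Cdk1, Top2a, Mcm2, Mcm6, Mcm7 and E2f1 and several probes of Ccnd1. The list is therefore not separate from the module. At 24 h against 9 h 0 were lower and 3, for Ccnd3 and Cdk2, were higher (limma). Among all tested probes 0.362% were lower and 1.55% higher there. Some related genes missed the module at 12 h. Aurka, Aurkb, Plk1, Mcm4 and Mcm5 each had a probe at -1.54 or lower at 144 h in the deposited table, but at -0.40 to -0.58 at 12 h. Ccnd1, the cyclin that couples growth signals to the cycle, followed another course: its probe with the largest change was already at -1.49 at 48 h and at -3.10 at 144 h.

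Other probes of the member genes show how far the module depends on the probe. Another 67 probes covered 42 of the genes, and 54 of them were tested. At 96 h against 24 h 10 of the 54 were lower and 0 higher (limma), where 4.53% of all tested probes were lower. In the deposited table, the one the rule used, 6 of the 67 were at or below -1 at 144 h, as were 451 of all 46019 probes. Those 6 were for H2ac10, H2ac22, Kif18b, Mcm6, Spc24 and Triobp. Of them, the H2ac22 and Triobp probes were lower at 96 h against 24 h, at -0.73 and -0.50 (limma adjusted p = 0.00985 and 0.00363). The H2ac10, Kif18b, Mcm6 and Spc24 probes did not pass. On the background-corrected quantile scale 18 of the 67 were at or below -1. Of 4 other Skp2 probes 2 were lower at 96 h, at -1.0036 and -0.70 (limma adjusted p = 4.8e-05 and 0.000841), and 2, at -0.48 and -0.29, did not pass (limma adjusted p = 0.192 and 0.361). Another tested probe each of Cdk1, Cdca8 and Rad54l, at -0.38, -0.40 and 0.26, did not pass (limma adjusted p = 0.0979, 0.311 and 0.591).

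Markers of other cell types moved in a few cases at 96 h against 24 h. Of 7 tested reserve cell probes 2 were lower, Pax7 at -0.91 and Sdc4 at -0.74, and the summed linear level of the list was 6833 to 7187 at 96 h, against 9532 to 9893 at 24 h. Of 9 adipocyte probes 2 were lower, Lpl at -2.24 and Cebpa at -0.48, with sums of 3128 to 3628 at 96 h, against 5739 to 6611 at 24 h, while the Plin1 probes were at or below the array median on every array at 0, 24 and 96 h. The Adipoq probe was above it on 3, 2 and 3 arrays at those times, with a change of 0.13 at 96 h against 24 h (limma adjusted p = 0.833). Of 10 fibroblast probes 2 were higher, Mfap5 and Col1a1, and Col3a1 was lower, with overlapping sums of 54863 to 71706 at 96 h, against 40206 to 69940 at 24 h. Of 7 osteoblast and chondrocyte probes 1, for Sp7, was higher, and of 8 endothelial and 3 macrophage probes none passed. The part of these cell types in the fall of the module was not tested.

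Promoters are shown for 3 members, to set mitosis and replication genes beside each other. RefSeq promoter sequences (GRCm38.p6, 250 bases before to 50 after the gene's start, the first start listed for each gene) were matched for 60 of the 71 member genes. The following motifs were searched on both strands: TTTGAA, the cell cycle genes homology region or CHR, CCAAT, the CCAAT box, and TTTCCCGC or TTTGGCGC, forms of the E2F site. The Top2a window is chr11:99024140-99024439, Cdk1 at chr10:69352863-69353162 and Mcm6 at chr1:128359656-128359955, all on the minus strand and written 5′ to 3′ along the gene, with capitals marking every match to a motif on either strand.
Top2a: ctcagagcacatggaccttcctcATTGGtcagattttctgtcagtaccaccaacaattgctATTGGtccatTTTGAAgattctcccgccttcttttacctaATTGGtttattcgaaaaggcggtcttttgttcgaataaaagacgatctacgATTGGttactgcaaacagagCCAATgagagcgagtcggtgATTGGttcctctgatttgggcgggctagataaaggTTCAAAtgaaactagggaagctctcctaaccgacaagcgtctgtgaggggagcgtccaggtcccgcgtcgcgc
Cdk1: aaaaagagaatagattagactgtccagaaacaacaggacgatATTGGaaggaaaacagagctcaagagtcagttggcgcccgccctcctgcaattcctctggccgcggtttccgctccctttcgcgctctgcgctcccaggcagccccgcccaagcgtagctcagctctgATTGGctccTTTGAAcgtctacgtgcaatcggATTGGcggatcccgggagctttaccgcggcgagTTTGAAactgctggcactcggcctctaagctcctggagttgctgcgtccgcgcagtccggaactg
Mcm6: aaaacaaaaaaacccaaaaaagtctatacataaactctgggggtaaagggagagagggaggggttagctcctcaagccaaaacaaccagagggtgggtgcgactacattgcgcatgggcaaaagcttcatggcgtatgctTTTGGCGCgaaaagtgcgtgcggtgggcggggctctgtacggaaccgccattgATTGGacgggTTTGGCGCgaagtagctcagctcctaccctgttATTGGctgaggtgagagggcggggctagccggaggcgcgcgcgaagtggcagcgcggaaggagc

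In these windows Top2a and Cdk1 have 2 CHR matches each and no E2F match, and Mcm6 has 2 E2F matches and no CHR match. The CHR letters were present in 10 of 14 mitosis genes (71.4%), 3 of 14 replication and repair genes (21.4%), 3 of 25 other named genes (12.0%) and 3 of 5 H2A genes, beside 18.1% of 27025 promoters. E2F letters were present in 3 of 14 replication and repair genes, 3 of 25 other named genes, 0 of 14 mitosis genes and 0 of 5 H2A genes, beside 1.63% of all promoters. The CCAAT box was present in 10 of 14 mitosis genes, 9 of 14 replication and repair genes and 5 of 5 H2A genes, beside 37.9% of all promoters. A match is only a run of letters in this window.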

How the data were processed

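Raw linear intensity values and normalized log2 values of 46019 probes on 36 arrays were deposited by the authors, and their scanner software and normalization method are not known here. The deposited log2 values chose the members. For all else, raw intensities were background-corrected (limma 3.58.1 normexp, offset 50, R 4.3.3), quantile-normalized and taken to log2. A probe was tested if it exceeded the median of its array on 3 or more arrays (29812 probes). One limma model with intensity trend covered the 24 arrays of the 8 times the rule did not use. P-values were two-sided, with Benjamini-Hochberg adjustment over all tested probes, and the threshold was 0.05.

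Genes were named through the series' value table, matched to the probes by identical values (to 4 decimals) on all arrays (44505 probes), and the platform annotation. Of all probes 28471 had 1 symbol, 10 several and 17538 none. The members and gene lists were chosen with earlier results of these data known. Named genes were, among members with 1 symbol, the 20 with the largest fall at 96 h against 24 h that passed and were lower in every pair, any that rose likewise at 24 h against 9 h (none did), the 5 brightest at 24 h, and those on a gene list. Other genes are named to give the full membership.

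Replicate numbers were taken to pair the samples: deviations of same-numbered samples correlated in all 3 replicates and every comparison (0.208 to 0.648). Some of these samples also shared a chip, so replicate and chip cannot be told apart there. The main fit had no replicate term, and counts from the fit blocked by replicate are given beside it. The fit was tested on simulated data.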

Additional observations from a re-analysis of the deposited data

How the results depend on the processing

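Array number and the spread at 96 h limit the precision. The 53 members lower at 96 h against 24 h became 25 with the 2 times fitted alone, 16 to 34 when a replicate was left out, and 27 to 64 when a single array was, the lowest being 27 (96 h, replicate 1) and 28 (24 h, replicate 2). At 24 h against 9 h the count of 0 became 2 with the replicate block and 1 when chips were blocked. The 75 lower at 96 h against 9 h became 39 with the 2 times alone and 39 to 77 when a replicate or an array was left out. With fewer arrays the residual degrees of freedom are fewer, and the part of this in the counts was not tested. The replicate block gave 69 members lower at 96 h than at 24 h and 87 lower than at 9 h, within 1.5 times of the counts above.

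The 90 members became 183 by the rule on normexp and quantile values (68 shared), 163 on log2 raw quantile values (75 shared), 143 on median-scaled values (59 shared), 33 with thresholds 0.1 stricter, 194 with thresholds 0.1 looser, and 75 to 116 when a replicate was left out. The cause was not tested. Median scaling changed the split over all tested probes at 96 h against 24 h to 1263 lower and 697 higher, beside 1350 and 1271.

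Of 651 values of named probes, 522 kept direction and side of the threshold, 121 no longer passed, 6 newly passed and 2 reversed: Tyms, between -0.45 and 0.10 when arrays were left out, was at 0.10 without replicate 1 (limma adjusted p = 0.859) and 0.07 without its 96 h array (limma adjusted p = 0.913). The alternative without the near-saturated members was chosen after seeing the data.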
